A study of Mus musculus with 22 samples.

Results

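The 10 genes described here encode Toll-like receptors and the proteins that work directly with them. They are the cell-surface receptors *Tlr1*, *Tlr2*, *Tlr4* and *Tlr6*, the endosomal receptors *Tlr3*, *Tlr7* and *Tlr13*, the co-receptors *Cd14* and *Ly96* (MD-2), and the adaptor *Myd88*. They were chosen by name, with earlier results of these data known. All 10 were found among the 55401 gene identifiers of the count table, and all 10 passed the filter on low counts in both sets of cells, where 14132 and 14365 genes were tested.

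The RNA came from mouse embryonic fibroblasts (MEFs), primary cells that reach replicative senescence in culture, and 22 libraries were sequenced. One set compared *S6K1* genotypes, with 4 early WT libraries (passage 3), 4 late WT libraries (passage 8) and 3 late *S6K1* KO libraries (passage 8). The other set compared *S6K1/S6K2* genotypes, with 3 late double KO (DKO) libraries at passage 8 beside WT libraries of passage 3 (early, 4 libraries) and passage 8 (late, 4 libraries). S6K1 and S6K2 are kinases of ribosomal protein S6 that act downstream of mTOR. No group received a drug or an oncogene. KO and DKO libraries were of passage 8 only. A gene said to fall in them was thus lower than in late WT, and their own change with passage was not measured. The embryos were at mid-gestation, and MEFs are made from whole embryo bodies without head and inner organs, so the cultures can hold cells other than fibroblasts. WT embryos of the first set were littermates of the KO embryos, from heterozygous parents, but the libraries are not tied to embryos or mothers. DKO MEFs came from *S6K2*-/- parents that carried 1 intact copy of *S6K1*, and their WT controls from separate WT mothers, so genotype and litter cannot be told apart in that comparison. The study describes its MEF replicates as coming from separate embryos, but the labels do not say which early and late libraries share one.

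Toll-like receptors recognise molecules of microbes and signal through adaptors such as MyD88 to NF-κB, MAP kinases and interferon regulatory factors. TLR2 pairs with TLR1 or TLR6 to bind lipoproteins at the cell surface, and TLR4 binds lipopolysaccharide with MD-2, to which CD14 hands it over. TLR3, TLR7 and TLR13 read double-stranded RNA, single-stranded RNA and bacterial ribosomal RNA in endosomes. Fibroblasts express several of these genes, and macrophages express nearly the whole family.

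The total count per library was 10742454 to 17314832 (median 14651363.5). *Rps6kb1*, which encodes S6K1, was at 55.6 to 75.3 CPM (counts scaled to the same library total, the common unit of level here) in late WT and 14.2 to 23.0 CPM in late KO libraries, and *Rps6kb2*, which encodes S6K2, at 11.2 to 16.4 CPM in late WT and 0.484 to 1.36 CPM in late DKO libraries, so that both fell with their genotype (adjusted p = 0.00744 and 0.000412). The 10 fibroblast markers summed to 19400 to 39305 CPM over all libraries, and the 8 lymphocyte, 4 mast cell and 4 neutrophil markers to at most 0.383, 1.28 and 0.442 CPM. The 6 epithelial or mesothelial markers summed to 20.04 to 44.8 CPM in early and 4.08 to 12.3 CPM in late WT libraries of the *S6K1* set and to 53.8 to 81.0 and 2.23 to 13.99 CPM in the other set, where 2 and 3 of 4 tested fell with passage. The fibroblast sum was 28782 to 36499 and 30337 to 39305 CPM in early WT and 19400 to 25948 and 19622 to 26598 CPM in late WT libraries (2 of 10 fell in each set), and the 6 skeletal muscle and 6 endothelial markers summed to 16.03 to 272 and 3.86 to 14.7 CPM. The part of these cells in the values below was not tested. The 19 macrophage markers summed to 509 to 1112 CPM in early WT, 5564 to 11666 CPM in late WT and 3658 to 5001 CPM in late KO libraries of the *S6K1* set, and to 599 to 2012, 7535 to 13004 and 926 to 3494 CPM in early WT, late WT and late DKO libraries of the other set. None of the 19 was at 0 in any group. Genes of the Y chromosome were detected in 2 of 4 early WT, 1 of 4 late WT and 3 of 3 late KO libraries of the *S6K1* set, and in 2 of 4, 3 of 4 and 1 of 3 libraries of the *S6K1/S6K2* set. *Tlr7* (chrX:167303380-167330574) and *Tlr13* (chrX:106143275-106160493) lie on the X chromosome, and *Tlr1* (chr5:64924680-64933600) and *Tlr6* (chr5:64953092-64970942) are neighbours (RefSeq, GRCm38.p6).

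The first comparison asked how the 10 genes differed between early and late WT MEFs. In the *S6K1* set, 6 of the 10 rose with passage (*Tlr1*, *Tlr2*, *Tlr7*, *Tlr13*, *Cd14* and *Ly96*) and none fell, beside 6.96% of all genes that rose and 5.97% that fell. The same 6 rose in the *S6K1/S6K2* set, where 8.28% of all genes rose and 4.89% fell. The median log2 fold change of the 10 genes was 1.38 and 1.13 in the 2 sets, and −0.04 and 0.01 over all genes tested. *Tlr3*, *Tlr4*, *Tlr6* and *Myd88* did not pass in either set. The second comparison asked how KO and DKO MEFs differed from late WT MEFs. None of the 10 passed in KO MEFs, where 0.00708% of all genes were higher and 0.0354% lower. In DKO MEFs 4 of the 10 fell (*Tlr2*, *Tlr7*, *Tlr13* and *Cd14*) and none rose, beside 3.95% of all genes that fell and 0.821% that rose. The median log2 fold change of the 10 genes was −0.40 in KO and −0.70 in DKO MEFs, and −0.01 over all genes in each. Each late WT group enters both comparisons of its set. Where the text below says that the libraries of groups did or did not overlap, this is a description. The share of all genes without overlap was not computed.

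**Figure D1:**
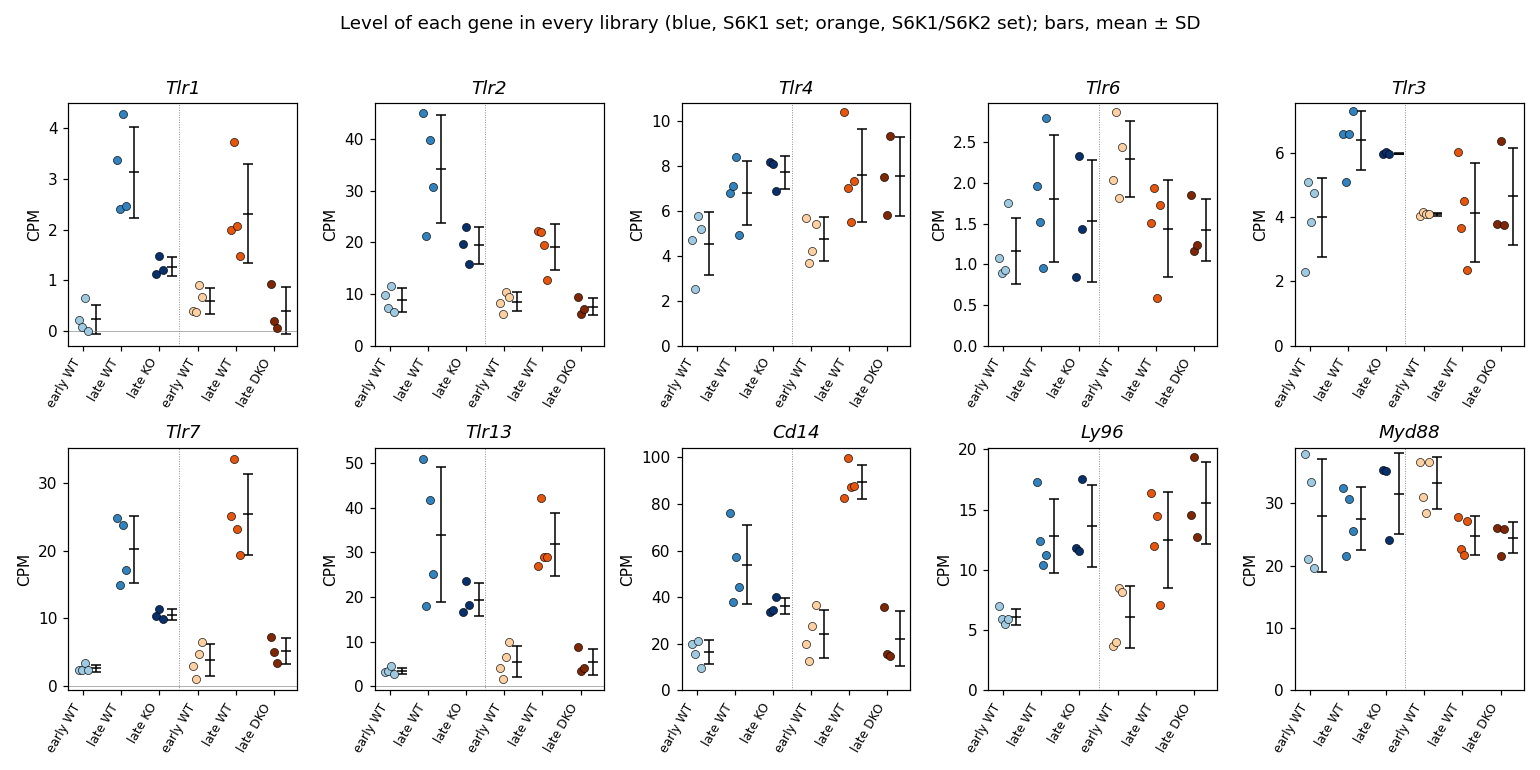
CPM (scaled counts, linear axes) of the 10 genes in each of the 22 libraries, 1 point per library, with the mean ± SD of each group beside the points; the dotted line separates the S6K1 set (blue) from the S6K1/S6K2 set (orange). *Tlr1*, *Tlr2*, *Tlr7*, *Tlr13* and *Cd14* were higher in every late WT library than in any early WT library of their set, while the *Myd88* points of all groups lay between 19.6 and 37.9 CPM. The share of all genes separated in this way was not computed.

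**Figure D2:**
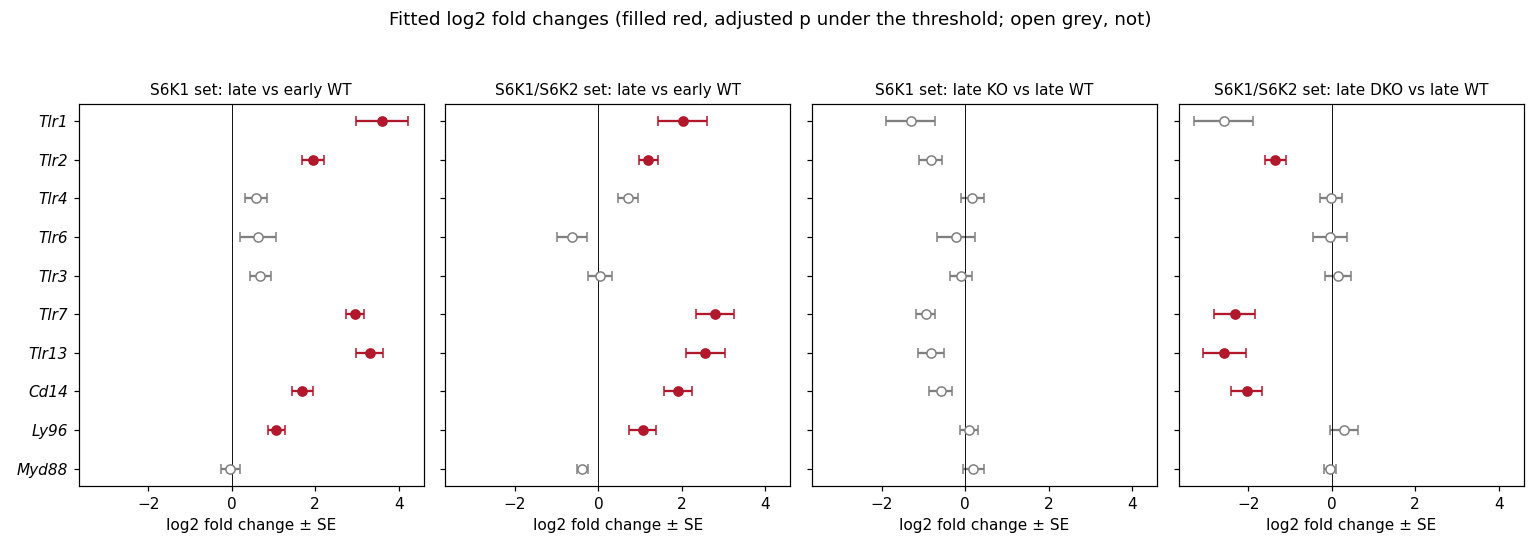
Fitted log2 fold change ± SE of each gene (x axis) in the 4 comparisons, from edgeR. Filled red points passed an adjusted p under 0.05: 6 genes to the right of 0 in each passage comparison, none in KO against late WT, and 4 to the left of 0 in DKO against late WT.

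Levels of different genes were compared per length, as CPM per kb of exon. In early WT MEFs of the *S6K1* set, *Myd88* (10.9 ± 3.51, SD, n = 4), *Cd14* (10.6 ± 3.26) and *Ly96* (10.1 ± 1.10) were the highest of the 10 and did not differ beyond their spread. *Tlr2* followed at 2.92 ± 0.781 CPM per kb, and the other 6 receptors were at 0.0876 to 0.909 CPM per kb. The order was different in late WT MEFs of the same set. *Cd14* led at 34.3 ± 10.7 CPM per kb (n = 4), followed by *Ly96* at 21.3 ± 5.07, and *Tlr2* (11.4 ± 3.49), *Myd88* (10.7 ± 1.94), *Tlr13* (8.31 ± 3.69) and *Tlr7* (4.94 ± 1.21) came next with overlapping spreads between neighbours. *Tlr3*, *Tlr4*, *Tlr1* and *Tlr6* were at 0.695 to 1.46 CPM per kb. In late DKO MEFs *Ly96* had the highest mean of the 10 at 25.8 ± 5.69 CPM per kb (n = 3), followed by *Cd14* at 14.04 ± 7.50, with overlapping spreads.

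**Figure D3:**
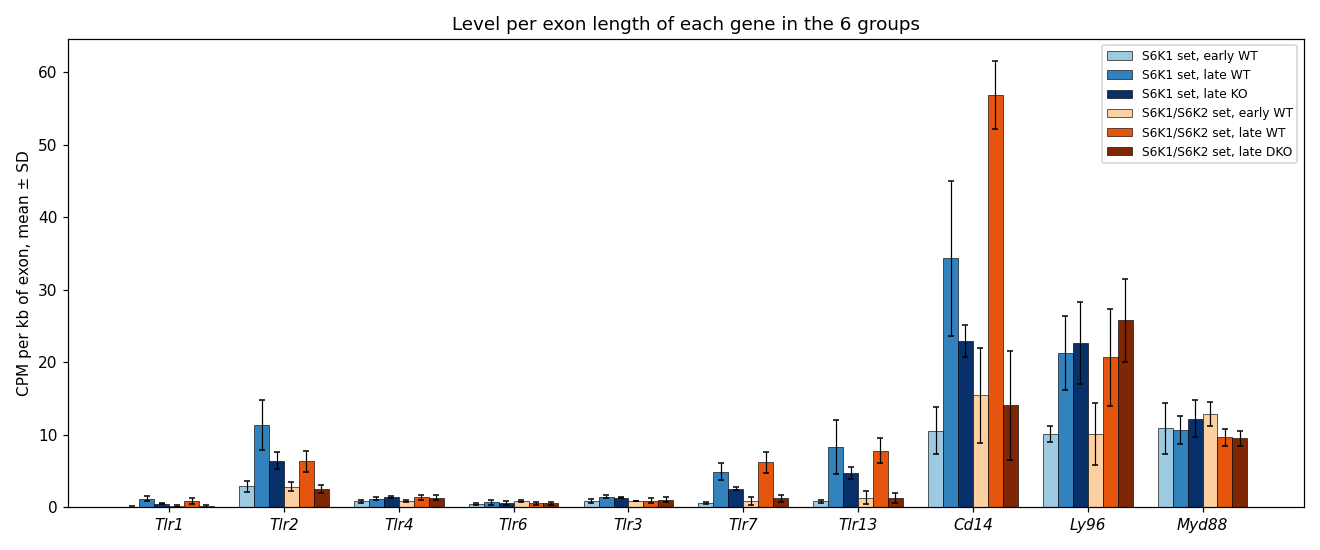
Mean level of each gene in CPM per kb of exon (y axis, from 0; error bars, SD over 3 or 4 libraries) in the 6 groups. *Cd14* reached 56.8 CPM per kb in late WT MEFs of the S6K1/S6K2 set, the highest bar, and the bars of *Tlr1* and *Tlr6* were at most 1.18 CPM per kb.

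Among the cell-surface receptors, *Tlr2* was the most abundant per length. In the *S6K1* set, *Tlr2* was at 9.76, 7.25, 11.6 and 6.51 CPM in the early WT libraries, at 45.2, 21.3, 39.9 and 30.7 CPM in the late WT libraries, and at 19.6, 22.9 and 15.7 CPM in the KO libraries. Every late WT library was above every early one, and the KO libraries reached from below the lowest late WT library to just above it. *Tlr2* rose by a log2 fold change of 1.95 ± 0.26 (SE, adjusted p = 0.000475), or 3.87-fold. Its KO value against late WT was −0.82 ± 0.27 and did not pass (adjusted p = 0.317).

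In the *S6K1/S6K2* set, *Tlr2* was at 8.34, 6.06, 10.4 and 9.33 CPM in the early WT libraries, at 22.3, 21.98, 19.6 and 12.7 CPM in the late WT libraries, and at 9.45, 6.10 and 7.17 CPM in the DKO libraries. All 4 late WT libraries were above both of the other groups. *Tlr2* rose 2.29-fold with passage (log2 fold change 1.20 ± 0.22, adjusted p = 0.00518) and was 2.55-fold lower in DKO than in late WT MEFs (−1.35 ± 0.25, adjusted p = 0.0122). The rise in the *S6K1* set exceeded that in the *S6K1/S6K2* set by 0.79 ± 0.35 on the log2 scale, a difference that did not pass (adjusted p = 0.475).

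*Tlr1*, the partner of TLR2 for triacylated lipoproteins, was counted in few reads. In the *S6K1* set its values were 0.214, 0.0748, 0.640 and 0 CPM in early WT libraries (0 to 11 counts), 3.37, 2.40, 4.29 and 2.46 CPM in late WT libraries (29 to 76 counts) and 1.12, 1.47 and 1.21 CPM in KO libraries. The 3 groups did not overlap, with KO between early and late WT. It rose by 3.60 ± 0.62 on the log2 scale with passage (adjusted p = 0.00276), by 3.27 to 4.76 when a library was left out (4.76 without early WT replicate 3) and by 4.21 with the Y-linked covariate, and its KO value of −1.30 ± 0.59 did not pass (adjusted p = 0.464). In the other set it was at 0.387, 0.367, 0.908 and 0.662 CPM in early WT, 1.99, 3.73, 2.06 and 1.47 CPM in late WT, and 0.928, 0.194 and 0.0618 CPM in DKO libraries. All late WT libraries were above the others, and DKO replicate 1 stood above the other DKO libraries. *Tlr1* rose by 2.02 ± 0.58 (adjusted p = 0.0409), a call lost when any of 8 of the 11 libraries was left out (adjusted p up to 0.126). The DKO value was −2.59 ± 0.70 (adjusted p = 0.0569), and without DKO replicate 1 it was −4.22 (adjusted p = 0.0106).

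*Tlr6*, the partner of TLR2 for diacylated lipoproteins, did not follow *Tlr1*. It lay between 0.589 and 2.88 CPM in all 22 libraries, and early and late WT libraries overlapped in both sets. The log2 fold change with passage was 0.63 ± 0.44 in the *S6K1* set (adjusted p = 0.381) and −0.64 ± 0.37 in the *S6K1/S6K2* set (adjusted p = 0.259), and the difference between the sets, 1.30 ± 0.56, did not pass (adjusted p = 0.458). *Tlr1* and *Tlr6* are close paralogs: of the stretches of 50 bases in their transcripts, 17.4% of those of *Tlr1* (454 of 2603) and 17.8% of those of *Tlr6* are also found in the other gene, so their counts are uncertain where the counting could split such reads.

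*Tlr4*, the signalling receptor for lipopolysaccharide, was at 2.54 to 10.4 CPM. Its log2 fold change with passage was 0.58 ± 0.26 (adjusted p = 0.178) in the *S6K1* set and 0.71 ± 0.24 (adjusted p = 0.0748) in the *S6K1/S6K2* set. It was called with the Y-linked covariate in the first (0.74, adjusted p = 0.0467) and by DESeq2 in the second (adjusted p = 0.0409). KO and DKO MEFs differed from late WT MEFs by 0.18 (95% interval −0.37 to 0.73) and −0.02 (−0.53 to 0.49) on the log2 scale. The level of the receptor for lipopolysaccharide thus overlapped between all late groups. That of *Cd14* overlapped between KO and late WT libraries but not between DKO and late WT libraries.

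The endosomal receptors fell into 2 patterns. *Tlr7*, a sensor of single-stranded RNA, was at 2.36, 2.32, 3.38 and 2.29 CPM in early WT libraries of the *S6K1* set, 24.9, 14.9, 23.9 and 17.1 CPM in late WT libraries and 10.3, 11.4 and 9.84 CPM in KO libraries. The groups did not overlap, with KO between early and late WT. *Tlr7* rose 7.74-fold with passage (log2 fold change 2.95 ± 0.23, adjusted p = 1.45e-05). Its KO value of −0.94 ± 0.23 against late WT did not pass in edgeR (adjusted p = 0.194) and passed in DESeq2 (adjusted p = 0.0109). Among the libraries with Y-linked expression, late WT replicate 3 was at 23.9 CPM and the 3 KO libraries at 9.84 to 11.4 CPM, and with the Y-linked level as a covariate the value was −1.19 (adjusted p = 0.0821).

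*Tlr7* of the *S6K1/S6K2* set was at 2.93, 0.918, 4.67 and 6.48 CPM in early WT, 25.1, 33.7, 23.3 and 19.4 CPM in late WT, and 7.17, 4.94 and 3.34 CPM in DKO libraries. DKO libraries lay in or just above the early WT range and all below late WT. The gene rose 6.93-fold with passage (2.79 ± 0.45, adjusted p = 0.00305) and was 5.01-fold lower in DKO than in late WT MEFs (−2.32 ± 0.50, adjusted p = 0.0239).

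*Tlr13*, the receptor of bacterial 23S ribosomal RNA, was at 3.16, 3.29, 4.48 and 2.73 CPM in early WT libraries of the *S6K1* set, 51.0, 17.98, 41.7 and 25.2 CPM in late WT libraries and 16.6, 23.5 and 18.2 CPM in KO libraries. Late WT and KO libraries were all above early WT and overlapped each other. It rose 9.86-fold (3.30 ± 0.32, adjusted p = 5.93e-05), and KO against late WT was −0.81 ± 0.32 (adjusted p = 0.395). Libraries of the *S6K1/S6K2* set were at 4.09, 1.53, 6.62 and 9.86 CPM in early WT, 27.0, 42.3, 29.0 and 29.1 CPM in late WT, and 8.69, 3.48 and 4.08 CPM in DKO libraries. DKO libraries were within the early WT range and DKO replicate 1 was again the highest of them. *Tlr13* rose 5.90-fold (2.56 ± 0.46, adjusted p = 0.00529) and was 5.95-fold lower in DKO than in late WT MEFs (−2.57 ± 0.52, adjusted p = 0.0196). With the Y-linked level as a covariate, *Tlr13* and *Tlr7* were still called in DKO MEFs (−2.84 and −2.42, adjusted p = 0.0252 and 0.0402).

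*Tlr3*, the receptor of double-stranded RNA, showed the other pattern. It was at 2.31 to 7.30 CPM in all libraries. Late WT libraries of the *S6K1* set (5.11 to 7.30 CPM) were just above early WT libraries (2.31 to 5.08 CPM), with a log2 fold change of 0.68 ± 0.25 that did not pass (adjusted p = 0.0943) and that DESeq2 called (adjusted p = 0.0406). In the *S6K1/S6K2* set the value was 0.04 ± 0.29 (adjusted p = 0.934). KO and DKO MEFs differed from late WT MEFs by −0.10 (95% interval −0.62 to 0.42) and 0.15 (−0.46 to 0.76).

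The RefSeq promoters (assembly GRCm38.p6, 250 bases before to 50 after a start) were searched on both strands for motifs of PU.1, NF-κB and AP-1. *Spi1*, which encodes the myeloid factor PU.1 and is 1 of the macrophage markers, rose with passage in both sets (log2 fold change 3.15 ± 0.34 and 2.97 ± 0.39, adjusted p = 0.000119 and 0.00104). Whether PU.1 acts on any of the 10 genes was not tested. Promoters were at hand for 6 of the 10 genes (*Tlr1*, *Tlr2*, *Tlr3*, *Tlr6*, *Tlr13* and *Myd88*), as 8 windows, with more than 1 for *Tlr1* and *Tlr6*. The PU.1 motif GAGGAAG, found in 13.6% of all 32851 promoters, was in the *Tlr13* window and in 1 *Tlr1* window. The NF-κB motif GGGANNNNCC, found in 20.7% of all promoters, was in the *Tlr2* and *Tlr3* windows, and the AP-1 motif TGACTCA, found in 5.2%, was in none. No window held both a PU.1 and an NF-κB match. The windows with a match are shown 5′ to 3′ on the gene's strand, with the matches in capitals. Of these genes *Tlr13*, *Tlr1* and *Tlr2* rose with passage, *Tlr2* without a PU.1 match, and *Tlr3* did not pass.
Tlr13, chrX:106143025-106143324, plus strand: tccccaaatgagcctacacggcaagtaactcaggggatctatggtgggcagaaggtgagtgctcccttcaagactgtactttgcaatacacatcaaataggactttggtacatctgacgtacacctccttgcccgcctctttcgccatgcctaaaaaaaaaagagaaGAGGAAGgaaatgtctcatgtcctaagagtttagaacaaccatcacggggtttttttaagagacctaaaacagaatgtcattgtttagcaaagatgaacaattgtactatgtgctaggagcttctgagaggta
Tlr1, chr5:64933509-64933808, minus strand: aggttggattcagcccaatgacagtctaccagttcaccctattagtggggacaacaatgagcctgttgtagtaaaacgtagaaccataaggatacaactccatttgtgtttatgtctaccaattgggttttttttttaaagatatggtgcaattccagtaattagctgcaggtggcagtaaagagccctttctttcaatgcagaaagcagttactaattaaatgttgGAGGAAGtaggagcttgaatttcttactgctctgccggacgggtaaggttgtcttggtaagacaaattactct
Tlr2, chr3:83841559-83841858, minus strand: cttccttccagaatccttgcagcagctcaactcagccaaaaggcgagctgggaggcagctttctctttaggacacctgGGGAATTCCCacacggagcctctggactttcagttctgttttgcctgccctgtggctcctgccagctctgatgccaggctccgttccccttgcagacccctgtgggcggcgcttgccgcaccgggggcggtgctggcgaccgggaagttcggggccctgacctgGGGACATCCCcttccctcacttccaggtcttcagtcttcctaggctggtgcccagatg
Tlr3, chr8:45410331-45410630, minus strand: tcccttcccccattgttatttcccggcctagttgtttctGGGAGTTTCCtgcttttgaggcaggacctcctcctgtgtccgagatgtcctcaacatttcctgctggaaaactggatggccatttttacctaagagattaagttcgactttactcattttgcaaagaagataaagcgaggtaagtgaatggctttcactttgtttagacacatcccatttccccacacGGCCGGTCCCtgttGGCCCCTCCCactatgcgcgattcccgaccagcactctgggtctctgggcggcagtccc
The PU.1 match began 83 bases before the *Tlr13* start and 23 bases before the *Tlr1* start (−83 and −23), the NF-κB matches at −172 and −8 for *Tlr2* and at −211, −23 and −9 for *Tlr3*. A match describes letters in these windows and not a bound site, and factor binding was not measured.

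The co-receptors of TLR4 parted from each other in DKO MEFs. *Cd14*, which carries lipopolysaccharide to TLR4, was at 19.9, 15.6, 21.1 and 9.76 CPM in early WT libraries of the *S6K1* set, 76.2, 38.0, 57.1 and 44.4 CPM in late WT libraries and 33.7, 34.5 and 40.1 CPM in KO libraries. Late WT and KO were above early WT in every library and overlapped each other. *Cd14* rose 3.23-fold (1.69 ± 0.26, adjusted p = 0.00121), and KO against late WT was −0.58 ± 0.27 (adjusted p = 0.479). Libraries of the other set were at 20.1, 12.7, 27.4 and 36.9 CPM in early WT, 82.6, 99.7, 87.1 and 87.9 CPM in late WT, and 35.7, 15.6 and 15.0 CPM in DKO libraries. The late WT libraries were all above the rest, and DKO replicate 1 was above the other DKO libraries. *Cd14* rose 3.76-fold (1.91 ± 0.33, adjusted p = 0.00450) and was 4.10-fold lower in DKO than in late WT MEFs (−2.04 ± 0.37, adjusted p = 0.0136).

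*Ly96*, whose product MD-2 holds lipopolysaccharide on TLR4, was at 7.02, 5.91, 5.47 and 5.89 CPM in early WT libraries of the *S6K1* set, 17.2, 12.4, 10.4 and 11.2 CPM in late WT libraries and 11.9, 11.6 and 17.6 CPM in KO libraries. Late WT and KO overlapped, and both were above early WT. It rose 2.10-fold with passage (1.07 ± 0.21, adjusted p = 0.00603). In the *S6K1/S6K2* set it was at 3.70, 4.04, 8.50 and 8.14 CPM in early WT, 16.4, 11.96, 14.4 and 7.09 CPM in late WT, and 14.5, 19.4 and 12.7 CPM in DKO libraries. The early and late WT libraries overlapped through late WT replicate 4, and DKO libraries were all within or above the late WT range. The rise was 2.09-fold (1.06 ± 0.32, adjusted p = 0.0470), a call lost when any of 8 of the 11 libraries was left out (adjusted p up to 0.141) and in 3 of 7 other settings (only the 2 groups compared, RLE scaling and the Y-linked covariate, adjusted p = 0.0654, 0.0504 and 0.0925). DKO against late WT was 0.30 ± 0.34 for *Ly96* (95% interval −0.36 to 0.96, adjusted p = 0.703), and KO against late WT 0.09 ± 0.22 (−0.35 to 0.52).

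*Myd88*, the adaptor of all TLRs but TLR3, was the steadiest of the 10. It was at 37.9, 21.2, 33.5 and 19.6 CPM in early WT libraries of the *S6K1* set, 32.5, 21.5, 30.8 and 25.6 CPM in late WT libraries and 35.4, 35.1 and 24.1 CPM in KO libraries, with all groups overlapping. Libraries of the *S6K1/S6K2* set were at 36.7, 31.1, 28.4 and 36.7 CPM in early WT, 27.8, 22.7, 21.7 and 27.2 CPM in late WT, and 26.0, 21.6 and 25.8 CPM in DKO libraries. Here each late WT library was below each early one. The log2 fold change with passage was −0.03 ± 0.23 (adjusted p = 0.953) and −0.39 ± 0.13 (adjusted p = 0.0714) in the 2 sets, the latter called by DESeq2 (adjusted p = 0.0298). DKO against late WT was −0.04 (95% interval −0.32 to 0.25) and KO against late WT 0.19 (−0.30 to 0.68). The share of *Myd88* stretches of 50 bases also found in another gene, the neighbour *Acaa1a*, was 0.939%.

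The calls in DKO MEFs depended on few libraries. Without DKO replicate 2 or DKO replicate 3, 0 of the 10 genes passed (97 and 157 genes in all, against 686), and *Tlr2*, *Tlr7*, *Tlr13* and *Cd14* had adjusted p of 0.0591 to 0.112 in the edgeR test, with log2 fold changes of −1.20 to −2.39. Without late WT replicate 2, *Tlr7* did not pass (adjusted p = 0.0575) and 3 genes remained called. Without DKO replicate 1, 5 genes passed. In the *S6K1* set the same 6 genes passed with passage whichever of the 11 libraries was left out.

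Whether the sets differed was tested as an interaction over all 22 libraries. For the effect of passage none of the 10 genes passed by edgeR or DESeq2, where 0.255% of 14886 genes were higher and 0.457% lower in the *S6K1* set. At an unadjusted p under 0.05 in edgeR were 2 of the 10, beside 1421 of the 14886 genes. For the effect of knockout, DKO in its set against KO in its own, none of the 10 passed by edgeR or DESeq2, where 0% of all genes were higher and 0.00672% lower. Here 3 of the 10 were at an unadjusted p under 0.05 in edgeR, beside 1626 of the 14886 genes. The largest of these differences among those 3 genes were −1.75 ± 0.60 for *Tlr13* (adjusted p = 0.328), −1.44 ± 0.47 for *Cd14* (adjusted p = 0.307) and −1.36 ± 0.53 for *Tlr7* (adjusted p = 0.378), in the direction of a lower value in DKO. In KO against late WT MEFs, 4 of the 10 genes were at an unadjusted p under 0.05 (*Tlr1*, *Tlr2*, *Tlr7* and *Tlr13*), DESeq2 called 1 (*Tlr7*), and 1499 of 14132 genes were at an unadjusted p under 0.05. A difference between KO and DKO was therefore not shown for any of the 10.

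Unlike *Ly96*, which was not lower in DKO MEFs, the macrophage markers changed in the same directions as *Tlr2*, *Tlr7*, *Tlr13* and *Cd14*. All 19 rose with passage in both sets (median log2 fold change 3.14 and 2.59), 18 of 19 fell in DKO against late WT MEFs (median −2.40), and in KO MEFs 0 of 19 passed by edgeR with all 19 point values lower (median −0.94, with 16 at an unadjusted p under 0.05 and 7 called by DESeq2). Over all genes, 6.96% and 8.28% rose with passage in the 2 sets and 3.95% fell in DKO MEFs by edgeR, and DESeq2 called 266 of 14132 in KO MEFs. The 18 marker calls in DKO MEFs became 2 without DKO replicate 2 or 3, 7 and 6 without late WT replicate 2 or 3, and 5 without the low-count filter. In bulk RNA, fewer cells of a type and less RNA per cell cannot be told apart. *Csf1r*, the receptor of macrophage colony-stimulating factor, was at 12.8 to 23.6 CPM in early WT and 83.1 to 243 CPM in late WT libraries of the *S6K1* set. *Adgre1*, which encodes F4/80, was at 90.1 to 134 CPM in late WT and 16.4 to 43.5 CPM in DKO libraries. The part of these cells in the values of the 10 genes was not tested.

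**Figure D4:**
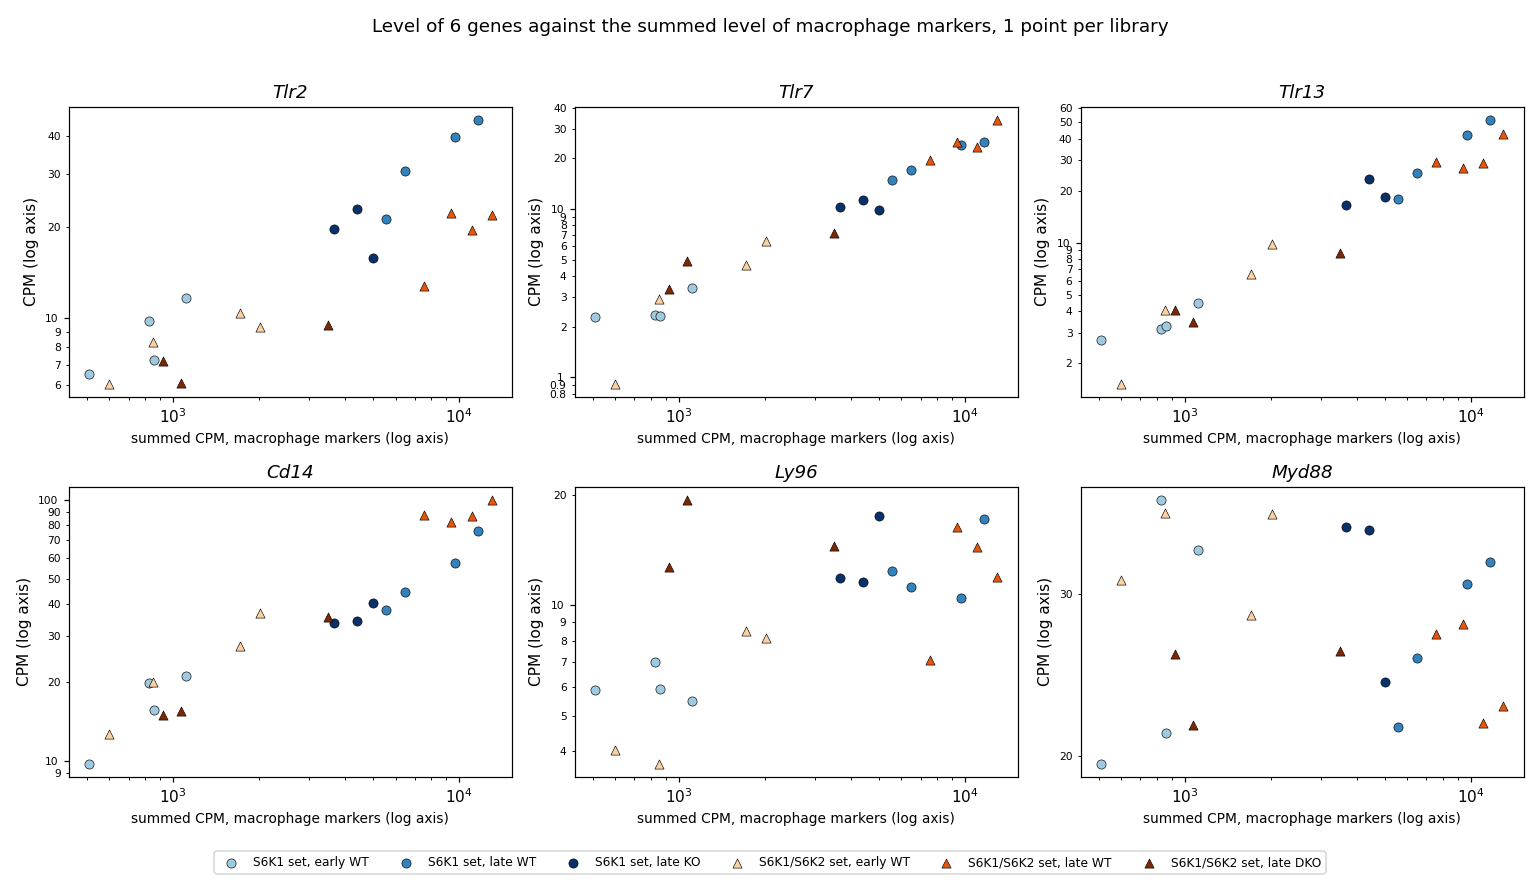
CPM of 6 of the genes (y axes, log) against the summed CPM of 19 macrophage markers (x axes, log), 1 point per library, circles for the S6K1 set and triangles for the S6K1/S6K2 set. *Tlr7*, *Tlr13* and the sum were higher in every late than in any early WT library of each set. Within groups the order could differ: KO replicate 3 had the highest sum of its group (5001 CPM) and the lowest *Tlr7* (9.84 CPM). Late WT MEFs of the S6K1 set and of the other set were at 21.3 to 45.2 and 12.7 to 22.3 CPM for *Tlr2* and at 38.0 to 76.2 and 82.6 to 99.7 CPM for *Cd14*. *Ly96* was at 12.7 to 19.4 CPM in DKO libraries, and *Myd88* at 19.6 to 37.9 CPM in all libraries.

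DKO replicates 1, 2 and 3 had summed macrophage markers of 3494, 1065 and 926 CPM. Replicate 1 was above the early WT range of 599 to 2012 CPM, and replicates 2 and 3 were inside it. *Ly96* was at 14.5, 19.4 and 12.7 CPM in the same libraries, above every early WT library of the set. *Tlr2* was at 21.3 to 45.2 CPM in late WT libraries of the *S6K1* set and at 12.7 to 22.3 CPM in those of the *S6K1/S6K2* set, while the summed macrophage markers were 5564 to 11666 and 7535 to 13004 CPM. *Cd14* was the other way round, at 38.0 to 76.2 CPM in late WT libraries of the *S6K1* set and 82.6 to 99.7 CPM in those of the *S6K1/S6K2* set. Levels of late WT MEFs were not tested between the sets.

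The genes most like each of the 10 over the 22 libraries were named by Pearson's r of log2 CPM among 13759 genes. These r are descriptions over libraries that share groups and scaling. *Tlr13* was most like *Csf1r* (r = 0.991), *Lcp1* (0.987) and *Inpp5d* (0.984). *Tlr7* was most like *Lpxn* (0.984), *Trem2* (0.983) and *Plek* (0.983), and *Cd14* like *Ms4a6d* (0.973), *AB124611* (0.965) and *Lyz2* (0.963), so that 1 gene of the macrophage list stood among the nearest 3 of each. *Tlr2* was most like *Efhd2* (0.969), *Rcsd1* and *Tmem106a*, and *Tlr1* like *Fam105a* (0.961), *Psd4* and *Lcp2*. *Ly96* was most like *Skap1* (0.929), *Rab32* and *Hist1h2bc*. The nearest genes were less close for *Myd88* (*Pmm2*, 0.877), *Tlr4* (*Mafk*, 0.874), *Tlr3* (*Vps25*, 0.815) and *Tlr6* (*B330016D10Rik*, 0.698), none of them on the macrophage list. Between members, r was 0.976 for *Tlr7* and *Tlr13*, 0.508 for the co-receptors *Cd14* and *Ly96*, and 0.0981 for the paralogs *Tlr1* and *Tlr6*.

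The other genes of the pathway were read from a list of 42, which holds further receptors, chaperones, kinases, ubiquitin ligases and transcription factors. Over all genes, 6.96% rose and 5.97% fell with passage in the *S6K1* set, and 8.28% rose and 4.89% fell in the *S6K1/S6K2* set. Of 35 listed genes tested in the *S6K1* set, 8 rose and 1 fell with passage (median log2 fold change 0.05, with 5 called without late WT replicate 3). Of 36 listed genes tested in the *S6K1/S6K2* set, 7 rose and 1 fell (median 0.15). The largest values among those called in the *S6K1* set were those of *Irf5*, a transcription factor activated downstream of MyD88 (2.74 ± 0.25, adjusted p = 4.27e-05), *Tlr8*, the X-linked neighbour of *Tlr7* (2.62 ± 0.65, adjusted p = 0.0203), and *Cd180*, a receptor related to TLR4 (2.60 ± 0.31, adjusted p = 0.000227). In the *S6K1/S6K2* set they were those of *Tlr8* (2.55 ± 0.60, adjusted p = 0.0162), *Ly86*, whose product MD-1 binds CD180 (2.37 ± 0.50, adjusted p = 0.0115), and *Irf5* (2.24 ± 0.32, adjusted p = 0.00131). *Tlr8* was counted in few reads. It had 2 to 5 counts in early and 3 to 42 in late WT libraries of the *S6K1* set. In the other set it had 3 to 9 in early and 7 to 43 in late WT libraries. The genes that fell were *Map3k8*, a MAP kinase kinase kinase (−0.86 ± 0.24 in the *S6K1* set, a call kept in 2 of 11 fits that left out a library), and *Irf7*, a transcription factor of interferon induction (−1.98 ± 0.32 in the *S6K1/S6K2* set), both named here after their values were seen. Of the other calls, that of *Ticam2*, an adaptor of TLR4, in the *S6K1* set (2.25 ± 0.68, adjusted p = 0.0492) was kept in 1 of 11 fits that left out a library (adjusted p up to 0.109). That of *Tbk1* in the same set was kept in 4 of 11.

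In KO against late WT MEFs 0 of 35 pathway genes passed by edgeR and 1 by DESeq2 (median −0.12), beside 6 and 266 of all 14132 genes. Of the 35, 5 were at an unadjusted p under 0.05 in edgeR, beside 1499 of all 14132 genes. In DKO against late WT MEFs 7 of 36 fell and none rose (median −0.09), beside 3.95% of all genes that fell and 0.821% that rose. *Cd36*, a scavenger receptor that assists TLR2 and TLR6, was at 9.05 to 14.2 CPM in late WT and 0.194 to 1.94 CPM in DKO libraries, and fell by 3.42 ± 0.56 on the log2 scale (adjusted p = 0.00731). *Tlr8* fell by 3.35 ± 0.75 (adjusted p = 0.0262) and *Ly86* by 2.60 ± 0.57 (adjusted p = 0.0275). The call of *Ly86* was kept in 7 of 11 fits that left out a library. That of *Tnfaip3*, another of the 7, was kept in 1 of 11. *Tlr8* was counted in few reads, with 1 to 3 counts in DKO and 7 to 43 in late WT libraries. Without DKO replicate 2 or 3, 2 pathway genes passed. For each interaction 0 of 38 pathway genes passed by edgeR, and DESeq2 called 0 for passage and 1 for knockout. In each, 5 were at an unadjusted p under 0.05 in edgeR, beside 1421 (passage) and 1626 (knockout) of all 14886 genes. *Tlr11* and *Tlr12* had 0 counts in every library, which allows up to 0.290 CPM (3 counts) in the shallowest library, by counting error alone. *Tlr5* and *Tlr9* had at most 14 and 16 counts in a library and were not tested in either set.

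**Figure D5:**
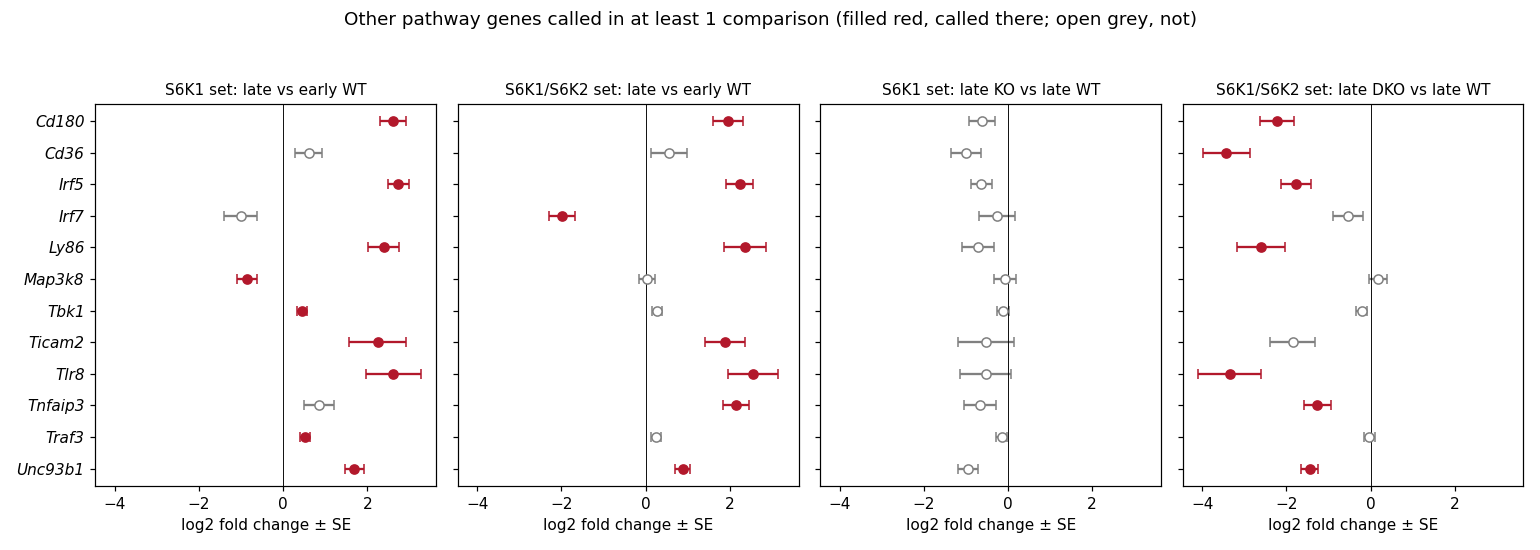
Fitted log2 fold change ± SE (x axis) of the 12 other pathway genes called in at least 1 of the 4 comparisons, filled red where called. *Irf5*, *Tlr8*, *Cd180*, *Ly86*, *Ticam2* and *Unc93b1* were called to the right of 0 in both passage comparisons, none was called in KO against late WT, and *Cd36* was called to the left of 0 in DKO against late WT only. No pathway gene passed a test of a difference between the sets by edgeR, and passage was not tested against knockout.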

How the data were processed

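RNA-seq counts of 22 libraries in 6 groups, taken from the sample labels, were analysed. The authors demultiplexed with CASAVA and the deposited values are raw counts per gene, with no normalization. The paper's methods name mm9, TopHat and HTSeq, while the submitters' processing notes name mm10 and STAR 2.7.1a, with DESeq2 1.28.1. Of the 55401 identifiers, 22812 are absent from GENCODE vM1 (the mm9 release used here for exon lengths and shared stretches of 50 bases) and 20244 have a higher version than there. The strand setting of the counting is not given in the sources used here, so counts of overlapping genes are uncertain. Symbols named 32589 identifiers (96.98% of counts). Promoters and their positions are RefSeq's on GRCm38.p6.

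Tests used edgeR 4.0.16 (R 4.3.3): filterByExpr removed low counts, TMM scaled the libraries, and robust quasi-likelihood models held the 3 groups of 1 set, or all 6 groups for interactions. P-values were adjusted by Benjamini-Hochberg over every tested gene (called under 0.05), without covariates or blocks. CPM are on TMM-scaled library sizes. Log2 CPM for r used a prior count of 2. Markers and the pathway list are textbook lists, and the members and lists were chosen with earlier results of these data known. Named were all 10 members and per comparison the 3 called pathway genes with the largest absolute log2 fold change. For each member at a mean of 1 CPM or more, the 3 genes with the highest r were named. They were taken from genes with a symbol that passed the low-count filter. Other pathway genes were named after their values were seen. No 2 libraries of a group were as close as sampling noise. The scripts were tested on simulated data.

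Alternatives were DESeq2 1.42.0, RLE or total-count scaling, no low-count filter, only the 2 groups compared or all 6 groups in the fit, the Y-linked level as a covariate, and leaving out each library. The total count was 10742454 to 17314832 per library. Each SE was the absolute log2 fold change divided by the square root of the edgeR F statistic. The 95% intervals used this SE with a normal distribution and are narrower than the F-test implies. For *Cd14* in KO against late WT MEFs the interval was −1.12 to −0.0453 at an unadjusted p of 0.0547 in edgeR. The limit given for *Tlr11* and *Tlr12* covers counting error only.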

Additional observations from a re-analysis of the deposited data

Results flagged for a closer look

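In groups of 4 libraries, 40 sets of values (10 genes in 4 groups) were examined for a library far from the other 3 by Dixon's criterion, by which chance marks about 1 group in 20, and 2 were found. *Tlr7* was at 3.38 CPM in early WT replicate 3 of the *S6K1* set, against 2.29 to 2.36 CPM in the other 3 libraries. The same library had the highest sum of the 19 macrophage markers of its group, 1112 CPM against 509 to 858 CPM. *Tlr13* was at 42.3 CPM in late WT replicate 2 of the *S6K1/S6K2* set, against 27.0 to 29.1 CPM in the other 3, and that library too had the highest macrophage marker sum of its group, 13004 CPM against 7535 to 11069 CPM. The part of those cells in either value was not tested. None of the 10 genes passed the test of a difference between the sets.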

How the results depend on the processing

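No paired analysis was possible because the libraries carry no replicate numbers shared between groups and are not tied to embryos or litters. With DESeq2 the counts of genes called were 266 and 1206 in KO and DKO against late WT, 2845 for passage in the *S6K1/S6K2* set, and 222 and 65 for the passage and knockout interactions, with 1 of the 10 genes (*Tlr7*) in KO. For KO against late WT, 25 genes were called with the Y-linked covariate, 16 with all 6 groups in the fit and 43 without the low-count filter, which gave 3 for the knockout interaction. The Y-linked covariate gave 3284 genes for passage in the *S6K1* set. Leaving out each library gave 1223 to 1749 and 885 to 2247 genes for passage in the *S6K1* and *S6K1/S6K2* sets, 2 to 9 in KO, 97 to 783 in DKO, 78 to 118 and 1 to 5 for the interactions, and of the 10 genes 6 to 6, 4 to 6, 0 to 0, 0 to 5, and 0 to 0 for either interaction. Signs turned only for values that had not passed. With the Y-linked covariate these were *Myd88* for *S6K1* passage (0.18, and 0.0074 with the 2 groups alone), *Tlr3* (0.13), *Tlr4* (−0.19), *Tlr6* (0.36) and *Myd88* (−0.23) in KO, *Tlr3* for *S6K1/S6K2* passage (−0.14, and −0.0390 with total-count scaling) and *Tlr6* for the knockout interaction (−0.27), and with DESeq2 *Tlr4* in DKO (0.0015). Leaving out a library, the log2 values ranged from −0.17 to 0.18 for *Myd88* and *S6K1* passage, −0.21 to 0.23 for *Tlr3* and *S6K1/S6K2* passage, −0.67 to 0.072 for *Tlr6* and −0.13 to 0.26 for *Ly96* in KO. In DKO they were −0.13 to 0.39 (*Tlr3*), −0.20 to 0.18 (*Tlr4*), −0.29 to 0.14 (*Tlr6*) and −0.085 to 0.064 (*Myd88*). For the passage interaction they were −0.29 to 0.10 (*Tlr4*), −0.20 to 0.52 (*Tlr7*), −0.46 to 0.026 (*Cd14*) and −0.16 to 0.22 (*Ly96*), and for the knockout interaction −0.021 to 0.50 (*Tlr3*), −0.37 to 0.0097 (*Tlr4*) and −0.11 to 0.64 (*Tlr6*). The cause of these changes was not tested. *Tlr7* and *Tlr13* lost their call in DKO without the low-count filter (adjusted p = 0.0861 and 0.0810), and *Tlr1* gained one there with DESeq2, all 6 groups, no filter or total-count scaling (adjusted p = 0.00603 to 0.0489). Among the 10 genes, depth limits *Tlr1* most, which had 0 to 14 counts in early WT libraries.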
